A study of Mus musculus with 18 samples.

Results

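De novo lipogenesis, the making of fatty acids from acetyl-CoA, was followed through 10 genes picked by name: its enzymes Acly, Acss2, Me1, Acaca, Acacb and Fasn, the transcription factors Srebf1 and Mlxipl, the regulator Thrsp and the lipid enzyme Pnpla3. All 10 were found among the 45706 genes of the deposited table, and all 10 passed the filter on low counts that 14788 genes passed. In this pathway acetyl-CoA is carboxylated to malonyl-CoA, which fatty acid synthase joins to palmitate with NADPH as the reductant. SREBP-1c, a product of Srebf1 that insulin raises, and ChREBP, the glucose-responsive factor that Mlxipl encodes, switch on the enzyme genes together. Brown fat is known to make fatty acids in this way while it also burns them, and malonyl-CoA is both the substrate of the synthase and a brake on the entry of fatty acids into mitochondria.

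BMC, the cells used, come from brown preadipocytes of the mouse that were immortalised as a line, and they were turned into brown adipocytes in 6-well plates. All groups shared this differentiation: insulin (20 nM) and triiodothyronine (1 nM), both known to drive lipogenic genes, were in the medium throughout, and dexamethasone (1 µM), isobutylmethylxanthine (0.5 mM) and indomethacin (0.125 mM) at its start. On day 7 cells were left without induction (0 h) or were sampled 4 h or 24 h after 1 µM norepinephrine, the transmitter of sympathetic nerves that starts lipolysis in brown fat. Each labelled time had 6 libraries, whose titles carry replicate numbers 1 to 6, and all 18 libraries belong to batch 1. The question the series names is which transcripts change once norepinephrine has induced thermogenic lipolysis. Nothing in the labels tells whether libraries stem from separate cultures. The p-values therefore refer to library-to-library spread alone, and that spread may be technical.

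Libraries with the same number resembled each other across the labelled times, and so did libraries whose numbers were 3 apart. The 10 genes are therefore described by labelled time and by 3 sets of 6 libraries, numbered 3 or 6 (3+6), 2 or 5 (2+5) and 1 or 4 (1+4). No label says what a number stands for. The sets were joined because earlier results of these data showed the likeness, so the p-values between sets give the size of a difference beside the spread within sets and are not independent evidence for the sets. Whether the time labels match the libraries was not tested. Expected counts per library, the estimated numbers of reads per gene, totalled 7010742 to 26501223. The lowest total, in 24 h replicate 5, came with 63.9% of counts on ribosomal RNA-like genes, against 11.8% to 20.2% in the other 17 libraries. These are the genes named Yam1, Gm26917, mt-Rnr1, mt-Rnr2 and Lars2, a group picked by name. Levels are given as CPM, expected counts divided by library totals that were scaled by the trimmed mean of M values (TMM).

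Of the 10 genes, 8 were highest in the 1+4 libraries and lower in both other sets. In 3+6 the summed level of the 10 genes was 1743 to 1994 CPM, in 2+5 it was 1745 to 1910 CPM and in 1+4 it was 3117 to 3422 CPM. Acacb was higher in both sets than in 1+4, and Mlxipl was lower in 2+5 only. In 2+5 against 1+4 all 10 genes passed the edgeR test at an adjusted p of 0.05, 1 higher and 9 lower, where 59.5% of all genes tested passed, 29.6% higher and 29.9% lower. In 3+6 against 1+4 there were 9 that passed, 1 higher and 8 lower, where 59.7% of all genes passed, 30.2% higher and 29.5% lower. Between 3+6 and 2+5, 5 genes were higher and 3 lower in 3+6, where 57.1% of all genes passed, 28.6% higher and 28.5% lower. The 8 genes lower in both sets against 1+4 compare with 17.8% of all genes tested. Fewer cells that express a gene and less RNA per cell cannot be told apart in such bulk samples.

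Most genes of the table differed between these sets, so the share of the 10 that passed says little beside the size and direction of their differences. Their median log2 fold change was -0.88 in 2+5 against 1+4 and -1.05 in 3+6 against 1+4. Over all genes tested the median was -0.00246 and 0.00419, and the median absolute value was 0.240 and 0.236. In 3+6 against 2+5 the median of the 10 genes was 0.19 and that of all genes 0.00118. On library totals without TMM scaling the median of all genes moved to -0.09, 0.17 and 0.25 in these comparisons. The calls then split into 1348 higher of 3788, 3404 higher of 4536 and 4406 higher of 5130, against 4378 of 8806, 4471 of 8833 and 4230 of 8440 with scaling. Less that shift, the fold changes of the 10 genes on unscaled totals were -2.68 to 0.60, -1.21 to 0.97 and -0.96 to 1.504 on the log2 scale.

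**Figure D1:**
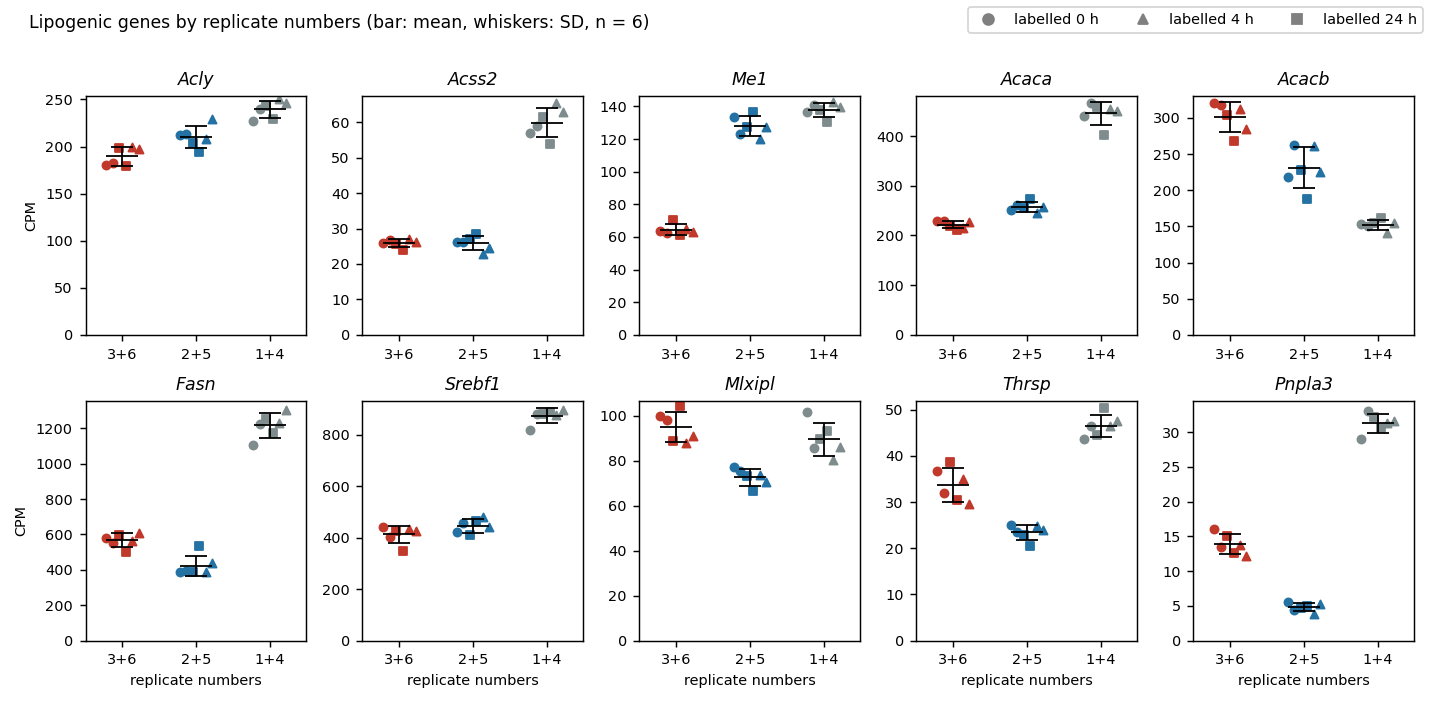
CPM of each gene (y axis, from 0) in the libraries of the 3 sets of replicate numbers (x axis), with circles for 0 h, triangles for 4 h and squares for 24 h. Bars are means and whiskers SD over 6 libraries; 8 genes are highest in 1+4, Acacb is lowest there, and Mlxipl is lowest in 2+5.

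The start regions of 4 of the 10 genes are shown. Fasn is given as the enzyme at the end of the pathway and Pnpla3 as the gene with the widest range. Srebf1 is given as the factor that switches on the enzyme genes. These are among the 8 genes lower in both sets against 1+4, and Acacb is given as the gene with the opposite pattern. Whether the sequences bear on these differences was not tested. Each line gives the 250 bases before the RefSeq transcript start on build GRCm38.p6, 5′ to 3′ on the strand of the gene. RefSeq gives Srebf1 3 starts, and the window with the most motif matches is printed. Capitals mark exact matches on either strand to motifs of factors known at lipogenic promoters.
Fasn, minus strand, chr11:120824548-120824797: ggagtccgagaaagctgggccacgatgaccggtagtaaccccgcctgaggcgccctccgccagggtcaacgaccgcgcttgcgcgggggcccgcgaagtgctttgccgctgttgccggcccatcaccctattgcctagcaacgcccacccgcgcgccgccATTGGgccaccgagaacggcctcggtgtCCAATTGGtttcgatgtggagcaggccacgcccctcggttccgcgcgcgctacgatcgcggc
Pnpla3, plus strand, chr15:84167566-84167815: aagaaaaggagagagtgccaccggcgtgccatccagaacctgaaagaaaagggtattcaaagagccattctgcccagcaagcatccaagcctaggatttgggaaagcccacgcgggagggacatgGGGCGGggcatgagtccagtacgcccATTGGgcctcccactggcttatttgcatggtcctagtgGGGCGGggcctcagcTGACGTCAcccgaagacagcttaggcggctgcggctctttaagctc
Srebf1, start within the gene, minus strand, chr11:60210472-60210721: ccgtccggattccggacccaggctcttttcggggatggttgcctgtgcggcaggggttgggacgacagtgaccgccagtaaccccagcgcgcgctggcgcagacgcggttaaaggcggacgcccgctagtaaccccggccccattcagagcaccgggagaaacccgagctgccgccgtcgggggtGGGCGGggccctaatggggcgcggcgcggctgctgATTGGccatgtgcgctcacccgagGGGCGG
Acacb, plus strand, chr5:114165268-114165517: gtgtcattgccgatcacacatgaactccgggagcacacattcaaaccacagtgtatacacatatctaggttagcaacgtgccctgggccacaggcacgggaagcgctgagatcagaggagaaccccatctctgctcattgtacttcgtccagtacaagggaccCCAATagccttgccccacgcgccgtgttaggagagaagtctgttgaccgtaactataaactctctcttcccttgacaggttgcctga
The capitals in Fasn are CCAAT boxes, which bind the factor NF-Y, and those in Pnpla3 are a CCAAT box, GC boxes (GGGCGG, bound by Sp1) and the cAMP response element TGACGTCA. The Srebf1 window holds a CCAAT box and GC boxes, and the Acacb window a CCAAT box. Of the Acacb window, 9 bases lie in an exon that GENCODE M21 gives for the gene. Like that of Srebf1, the Acacb window lies within the gene, whose annotated span starts at base 114146535. GENCODE M21, on mm10, also gave the gene positions below.

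RefSeq gave 14 such windows for the 10 genes. A CCAAT box stood in 9 of the 14 windows, in 8 genes, against 33.8% of the 32851 windows of all genes, and a GC box in 7 windows, in 6 genes, against 32.7%. The cAMP response element was found in the Pnpla3 window alone, against 1.55% of all windows. Its bases lie 46 to 39 before the start. Mlxipl held the only sterol regulatory element of the form TCACNCCAC, against 1.05% of all windows, and in a second window the only E-box CACGTG, against 6.02%. Of the element that binds the liver X receptor with RXR, only the exact form was searched, AGGTCA repeated after any 4 bases. That form was in none of the 14 windows and in 0.0152% of all. Sites that depart from it were not looked for, so a window without a match, such as those of Srebf1, may still hold one. A CCAAT box in reverse can overlap one in direct order, as it does in Fasn. In the windows of Thrsp, Acss2 and Me1, 180, 95 and 39 bases lie in exons that GENCODE M21 gives for these genes. The CCAAT boxes of Thrsp and Acss2 stand in such bases. Every motif was searched only in the form given. Looser forms of the sterol regulatory element and the E-box were not looked for, in Srebf1 or elsewhere. These matches describe letters in the windows and say nothing about binding.

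Acly, ATP citrate lyase, splits citrate in the cytosol to give most of the acetyl-CoA for lipogenesis (chr11:100476353-100528000, mm10). Its lowest, median and highest levels were 179, 189.7 and 199.6 CPM in 3+6, 194, 210.5 and 229.5 CPM in 2+5 and 228, 241 and 251 CPM in 1+4. Acly thus had a narrow range, the 3+6 and 1+4 libraries did not overlap, and 2+5 lay between and touched both. In 2+5 against 1+4 Acly differed by log2 -0.18 (SE 0.04, edgeR adjusted p = 1.13e-04), and in 3+6 it differed by -0.34 (SE 0.04, 6.12e-09). Against 2+5, 3+6 was lower by log2 -0.16 (SE 0.04), a direction that turned to 0.11 on unscaled totals.

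Acss2 makes acetyl-CoA from acetate in the cytosol (chr2:155517948-155585724). In 3+6 it had 23.9, 25.98 and 27.2 CPM as lowest, median and highest, in 2+5 22.9, 26.3 and 28.5 CPM, and in 1+4 53.7, 60.2 and 65.4 CPM. The 3+6 and 2+5 libraries covered nearly the same range, and every 1+4 library lay above both. Acss2 averaged 43.3% of the 1+4 mean in 3+6 and 43.3% in 2+5. The log2 fold changes were -1.22 (SE 0.05, edgeR adjusted p = 1.41e-17) in 2+5 and -1.21 (SE 0.05, 4.30e-18) in 3+6 against 1+4. Between 3+6 and 2+5 the log2 difference was 0.01 with a 95% interval of -0.10 to 0.12 (edgeR adjusted p = 0.884). Acss2 shares bases with Ggt7, Gss and an antisense gene on the other strand, and the strand setting of the counting is not given in the sources used here. By annotated span, Srebf1 likewise overlaps Rai1 on the other strand, Acaca Gm11437, Me1 A330041J22Rik and Mlxipl Gm43500.

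Me1, cytosolic malic enzyme, yields NADPH for the synthase (chr9:86581371-86695953). Its 6 libraries of 3+6 had 61.0, 63.3 and 70.6 CPM as lowest, median and highest, those of 2+5 had 120.3, 127 and 136 CPM, and those of 1+4 had 130.5, 139 and 143 CPM. Me1 was the gene of the 10 in which 2+5 stayed close to 1+4 while 3+6 stood far below both. In 2+5 against 1+4 Me1 was lower by log2 -0.12 (SE 0.04, edgeR adjusted p = 0.0114), and the call was lost without 0 h replicate 5 (log2 -0.09, adjusted p = 0.0526). In 3+6 it was -1.10 against 1+4 (SE 0.04, 3.23e-19) and -0.99 against 2+5 (SE 0.04, 1.16e-17). Of all genes tested, 2.56% had a lower fold change than Me1 in 3+6 against 2+5.

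The carboxylases that make malonyl-CoA moved in opposite directions. Acaca encodes acetyl-CoA carboxylase 1, the cytosolic enzyme that feeds the synthase (chr11:84129672-84401651), and Acacb encodes acetyl-CoA carboxylase 2, held at the mitochondrial outer membrane, where its malonyl-CoA restrains fatty acid oxidation (chr5:114146535-114250761). Acaca had 211, 224 and 229 CPM as lowest, median and highest in 3+6, 245, 256 and 273 CPM in 2+5 and 402, 452 and 467 CPM in 1+4. Acacb had 268, 308 and 320.4 CPM in 3+6, 188, 227 and 263 CPM in 2+5 and 140.3, 154 and 161 CPM in 1+4. For both genes the 3 sets did not overlap at all, in opposite order. In all, 4 of the 10 genes had 3 sets apart in this way (Acaca, Acacb, Thrsp and Pnpla3), against 7.43% of all genes tested.

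Acaca was lower by log2 -0.79 in 2+5 (SE 0.04, edgeR adjusted p = 5.44e-16) and by -1.01 in 3+6 (SE 0.04, 2.31e-18), each against 1+4. Acacb was higher by 0.61 in 2+5 (SE 0.06, 4.13e-08) and by 0.98 in 3+6 (SE 0.06, 1.71e-11). Acaca in 3+6 against 2+5 differed by -0.21 (SE 0.04) and Acacb by 0.38 (SE 0.06); the sign of Acaca turned to 0.07 on unscaled totals. Per kilobase of exons, the ratio of Acacb to Acaca was 2.21, 2.46 and 2.57 in 3+6 as lowest, median and highest. It was 1.22, 1.57 and 1.89 in 2+5 and 0.547, 0.605 and 0.712 in 1+4. Per kilobase, Acacb was thus above Acaca in every library of 3+6 and 2+5 and below it in every library of 1+4. Not divided by length, the ratio of CPM was 1.25, 1.39 and 1.45 in 3+6, 0.688, 0.885 and 1.07 in 2+5 and 0.308, 0.341 and 0.402 in 1+4. Which of the pair was the higher in 2+5 therefore depended on the division by length, while the order of the sets did not. These ratios within a library do not depend on the scaling. Exon length was the union of all annotated exons of the gene, 17074 bases for Acaca and 9632 for Acacb. A union longer than the transcripts in use lowers the level per kilobase, and which transcripts were used was not tested. A change in the isoforms used would also alter the ratio.

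Fasn, fatty acid synthase, joins malonyl-CoA units to palmitate (chr11:120805846-120824547); its start region is printed above. Its lowest, median and highest levels were 503, 572 and 611 CPM in 3+6, 389, 392.1 and 533 CPM in 2+5 and 1109, 1228 and 1307 CPM in 1+4. All 1+4 libraries lay far above the other 12. The highest 2+5 value belonged to 24 h replicate 5, the library rich in ribosomal RNA-like counts. The other 5 libraries of 2+5 had 389 to 440.01 CPM. Fasn averaged 46.7% of the 1+4 mean in 3+6 and 34.7% in 2+5. The log2 fold change was -1.53 in 2+5 (SE 0.07, edgeR adjusted p = 3.35e-14) and -1.10 in 3+6 (SE 0.07, 6.49e-12), each against 1+4, and 0.43 in 3+6 against 2+5 (SE 0.07, 1.03e-05). Without 24 h replicate 5 these were -1.61, -1.11 and 0.50.

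Srebf1 encodes SREBP-1a and SREBP-1c, the factors that switch on the enzyme genes of fatty acid synthesis (chr11:60199089-60222581). In 3+6 it had 349, 426 and 441 CPM as lowest, median and highest, in 2+5 411, 449 and 479 CPM, and in 1+4 819, 883 and 896 CPM. Every 1+4 library stood far above the other 12, which overlapped each other. The log2 fold change was -0.97 in 2+5 (SE 0.05, edgeR adjusted p = 6.85e-16) and -1.09 in 3+6 (SE 0.05, 5.92e-17), each against 1+4. Between 3+6 and 2+5 it was -0.11 (95% interval -0.21 to -0.01, edgeR adjusted p = 0.0501), just outside the threshold, which it passed in 6 of 11 other settings, and 0.17 on unscaled totals. Gene-level counts do not separate SREBP-1a from SREBP-1c. Per kilobase of exons Srebf1 was the most abundant of the 10, with 73.2 ± 6.01 CPM per kb in 3+6, 79.1 ± 4.63 in 2+5 and 155 ± 4.99 in 1+4 (SD, n = 6).

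Mlxipl encodes ChREBP, which binds lipogenic promoters when glucose is high (chr5:135089890-135138382). Its levels were 87.7, 94.6 and 105 CPM in 3+6, 66.3, 73.4 and 77.0 CPM in 2+5 and 80.2, 87.9 and 102 CPM in 1+4. The 2+5 libraries lay below all others, and 3+6 and 1+4 overlapped. The log2 fold change was -0.29 in 2+5 (SE 0.04, edgeR adjusted p = 3.47e-06) and 0.09 in 3+6 (95% interval -0.000220 to 0.18, adjusted p = 0.0798), each against 1+4. The value was 0.37 in 3+6 against 2+5 (SE 0.04, 4.73e-08). Unlike Srebf1, Mlxipl was thus not lower in 3+6. Its value there, 0.12, passed the edgeR threshold without 0 h replicate 1 (adjusted p = 0.0191) or without 24 h replicate 3 (adjusted p = 0.0192).

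Thrsp, also called Spot 14, is a thyroid hormone-responsive protein of lipogenic tissues (chr7:97412938-97417730). It had 29.6, 33.5 and 38.7 CPM as lowest, median and highest in 3+6, 20.6, 23.7 and 25.01 CPM in 2+5 and 43.7, 46.5 and 50.3 CPM in 1+4. The 3 sets stood apart, with 3+6 in the middle. Against 1+4 the log2 fold change was -0.96 in 2+5 (SE 0.06, edgeR adjusted p = 4.80e-13) and -0.45 in 3+6 (SE 0.06, 1.17e-07), and it was 0.51 in 3+6 against 2+5 (SE 0.06, 9.14e-08).

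Pnpla3, a lipid droplet protein of the patatin family whose gene SREBP-1c and ChREBP are known to induce (chr15:84167837-84187236), had the widest range of the 10. It was at 12.2, 13.6 and 16.1 CPM in 3+6, 3.88, 4.86 and 5.54 CPM in 2+5 and 29.0, 31.4 and 33.0 CPM in 1+4. No library of any set came near the range of another. Pnpla3 averaged 44.3% of the 1+4 mean in 3+6 and 15.3% in 2+5. Its log2 fold change was -2.70 in 2+5 (SE 0.08, edgeR adjusted p = 7.11e-21) and -1.17 in 3+6 (SE 0.06, 2.22e-15), each against 1+4, and 1.54 in 3+6 against 2+5 (SE 0.08, 7.99e-15). In 2+5 against 1+4, 17 of the 14788 genes tested had a lower fold change. Its annotated span overlaps Gm49513 on the same strand, and salmon may have divided reads between them.

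**Figure D2:**
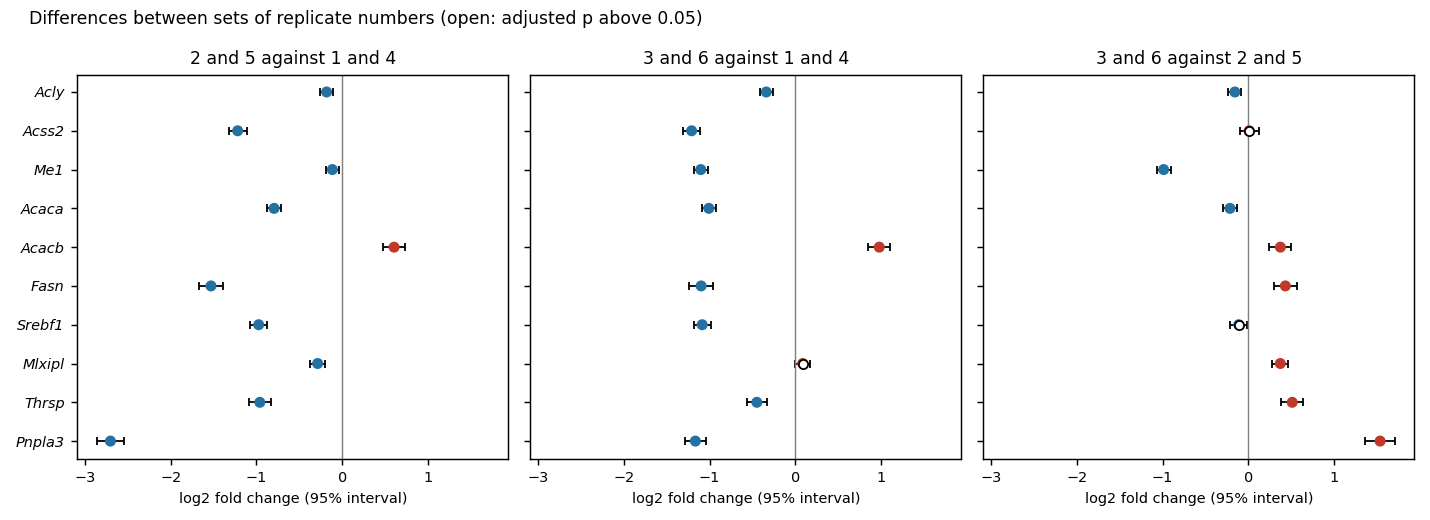
Log2 fold change (x axis) of each gene (y axis) between sets of replicate numbers, with 95% intervals from edgeR over 18 libraries; open points had an adjusted p above 0.05. In the left and middle panels Acacb is the only gene clearly right of 0, and in the right panel Pnpla3 (1.54) and Me1 (-0.99) lie farthest from 0 on opposite sides.

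The 10 genes thus formed several patterns across the sets. Fasn, Thrsp and Pnpla3 were lowest in 2+5, with 3+6 between. The log2 differences of Srebf1 and Acss2 between 3+6 and 2+5 were small, with both sets below 1+4. Acaca and Acly were lowest in 3+6, an order to 2+5 that turned on unscaled totals, and Me1 was low in 3+6 almost alone. By the ranges of the libraries, 2+5 did not overlap 1+4 in 8 genes (1 higher and 7 lower), against 35.3% of all genes tested, with Acly and Me1 overlapping. In 9 genes 3+6 did not overlap 1+4 (1 higher and 8 lower), against 38.6%, with Mlxipl overlapping. In 6 genes 3+6 and 2+5 did not overlap (4 higher and 2 lower), against 29.8%.

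Each set holds libraries of 2 numbers, so each difference can be given in 2 pairs of numbers that share no library. For Fasn, number 2 against 1 gave log2 -1.62 (SE 0.08) and number 5 against 4 gave -1.45 (SE 0.08), while 3 against 2 gave 0.57 (SE 0.08) and 6 against 5 gave 0.30 (SE 0.08). For Pnpla3 these were -2.67 (SE 0.10) and -2.74 (SE 0.11), and for Acacb 0.66 (SE 0.09) and 0.55 (SE 0.09). Number 3 against 1 gave -1.06 for Me1 and 6 against 4 gave -1.14 (SE 0.05 each). Thrsp differed more between the pairs, with -0.29 (SE 0.06) for 3 against 1 and -0.64 (SE 0.06) for 6 against 4. Mlxipl gave 0.02 (SE 0.06, edgeR adjusted p = 0.751) for 3 against 1 and 0.15 (SE 0.06, 0.0357) for 6 against 4. For Srebf1 the value was -0.01 (95% interval -0.14 to 0.11) for 3 against 2 and -0.21 (-0.34 to -0.09) for 6 against 5. Since the numbers were joined for their likeness, these values are a description. Without joining, all 10 genes differed between the 6 numbers (edgeR F-test, adjusted p at most 0.05), against 72.5% of all genes tested.

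**Figure D3:**
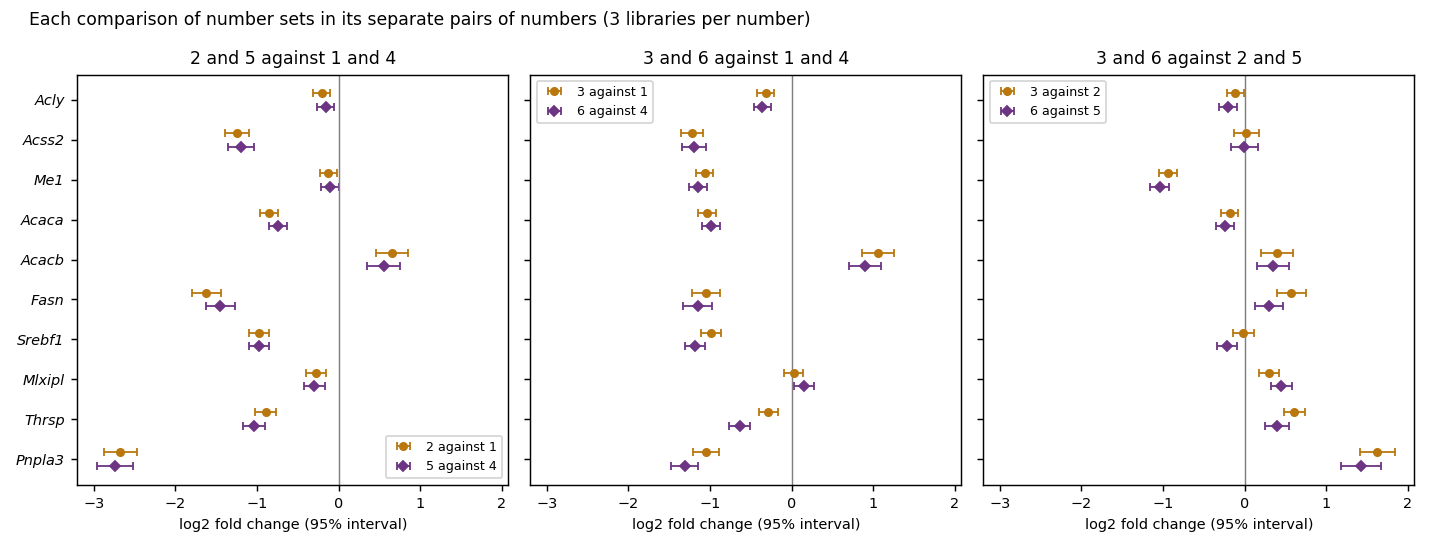
Log2 fold change (x axis, with 95% intervals) of each gene for the separate pairs of replicate numbers behind each comparison of sets, 3 libraries per number. Circles are numbers 1 to 3 and diamonds numbers 4 to 6; for Pnpla3 in the left panel they lie at -2.67 and -2.74.

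By labelled time, none of the 10 genes passed the edgeR test in 4 h against 0 h, 24 h against 0 h or 24 h against 4 h, where 0% of all genes passed in each. At an unadjusted p under 0.05 there were 173, 158 and 137 genes of all and none of the 10, and DESeq2 called 0 genes in each as well. Log2 fold changes of the 10 genes ran from -0.14 to 0.09 in 4 h against 0 h and from -0.12 to 0.07 in 24 h against 0 h. Fasn had 390.1, 568 and 1225 CPM as lowest, median and highest at 0 h, 389, 586 and 1307 CPM at 4 h and 390.03, 565 and 1256 CPM at 24 h. Each time thus held the whole spread of the number sets. Its log2 fold change was 0.09 (SE 0.39, 95% interval -0.72 to 0.91) at 4 h and 0.07 (SE 0.39, -0.75 to 0.88) at 24 h, each against 0 h, both with an edgeR adjusted p of 1.00.

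Srebf1 gave 402, 449 and 883 CPM at 0 h, 426, 460 and 896 CPM at 4 h and 349, 445 and 889 CPM at 24 h. Pnpla3 gave 4.34, 14.8 and 33.0 CPM at 0 h, 3.88, 12.95 and 31.6 CPM at 4 h and 4.75, 13.8 and 32.2 CPM at 24 h. The 6 libraries of 4 h and of 24 h overlapped those of 0 h for all 10 genes, where 0.0676% and 0.0406% of all genes did not overlap. Labelled time accounted for 0.00438% (Acss2) to 8.23% (Mlxipl) of the variance of log2 CPM in a gene of the 10, against a median of 3.78% over all genes tested. The number sets accounted for 76.2% (Mlxipl) to 98.6% (Me1), against a median of 62.7%. These shares are a description, with no test.

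**Figure D4:**
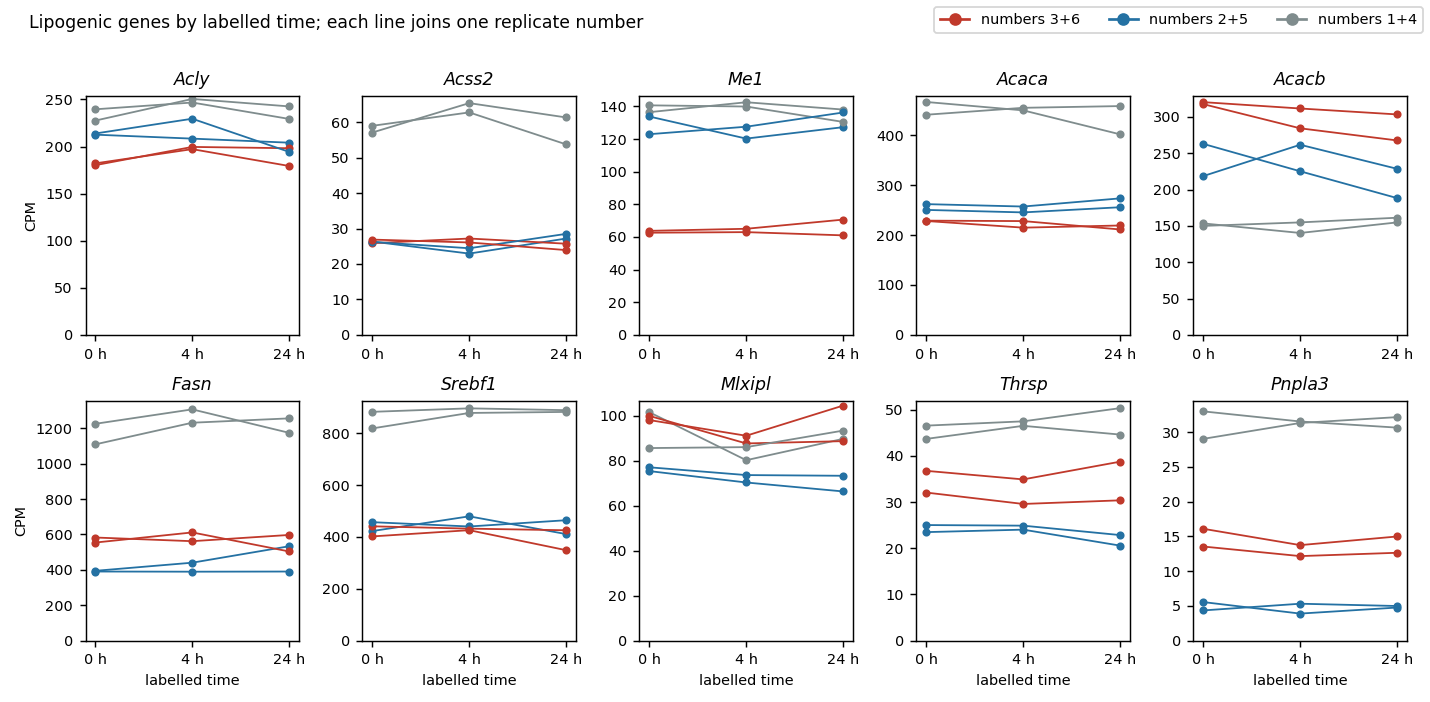
CPM of each gene (y axis, from 0) by labelled time (x axis), each line joining the 3 libraries of 1 replicate number and coloured by set. Most lines run nearly flat, and those of all 3 sets keep apart only in Acaca, Acacb, Thrsp and Pnpla3. For Fasn, 1+4 lies between 1109 and 1307 CPM, above both other sets at every time. The Fasn lines of 3+6 and 2+5 cross, with 503 CPM in 24 h replicate 6 and 533 CPM in 24 h replicate 5.

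With the replicate number as a block, which removes the spread between numbers, still none of the 10 genes passed, against 0% of all genes in 4 h against 0 h and 0.00676% in 24 h against 0 h. Mlxipl came nearest in 4 h against 0 h. It had 75.4, 91.8 and 102 CPM as lowest, median and highest at 0 h, 70.3, 83.1 and 91.1 CPM at 4 h and 66.3, 89.2 and 105 CPM at 24 h. It was lower at 4 h in 5 of 6 numbers. Blocked, it differed by log2 -0.14 (SE 0.04, edgeR adjusted p = 0.271, unadjusted p = 0.00351). In 5 of 6 numbers Acly had more CPM at 4 h than at 0 h, by a blocked 0.09 (SE 0.04, edgeR adjusted p = 0.445). For Fasn the blocked values were 0.08 at 4 h (95% interval -0.04 to 0.20) and 0.07 at 24 h (-0.05 to 0.20), each against 0 h. Whether the time effect differed between the sets was tested as an interaction. None of the 10 passed, against 0% of all genes (415 of all at an unadjusted p under 0.05), and Acss2 had the lowest unadjusted p of the 10, 0.0263.

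Of 4914 named nuclear genes with a mean log2 CPM of at least 5, the 5 most like Fasn by Pearson correlation of log2 CPM over the 18 libraries were Gypc (0.987), Dgat2 (0.986), Parm1 (0.984), Tns1 (0.984) and Fads1 (0.983). Dgat2 encodes the acyltransferase of the last step of triglyceride synthesis, with 94.7 ± 10.9 CPM in 3+6, 69.2 ± 5.05 in 2+5 and 249 ± 9.76 in 1+4 (SD, n = 6). Fads1 encodes the delta-5 desaturase, with 155 ± 6.93, 134 ± 2.81 and 267 ± 7.98 CPM in the same order of sets. Among the 10 genes, the correlation with Fasn was 0.95 for Acss2, 0.93 for Pnpla3, 0.92 for Srebf1, 0.91 for Thrsp and 0.88 for Acaca. It was 0.66 for Acly, 0.41 for Mlxipl, 0.33 for Me1 and -0.76 for Acacb. By Spearman's rank correlation Pnpla3 (0.93) and Thrsp (0.87) stayed near these values, while Acss2 had 0.71, Srebf1 0.65, Acaca 0.53 and Acacb -0.48. Acly and Me1 had 0.50 each and Mlxipl 0.43. All these points share the number sets, so the correlations describe the set pattern and carry no test.

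Genes around the pathway were taken from lists, which hold other enzymes, partners and control genes. Their counts have the same edgeR fit and background as the 10 genes, except where unscaled totals or fewer libraries are named. Those counts come from separate fits. On unscaled totals, 1348 of all genes were higher and 2440 lower in 2+5 against 1+4. In 3+6 against 1+4 there were 3404 higher and 1132 lower. Of the genes that desaturate and elongate new fatty acids, 15 of 16 were tested. In 2+5 against 1+4 there were 1 higher and 12 lower, and in 3+6 against 1+4 there were 1 higher and 13 lower, with medians of -0.41 and -0.78 on the log2 scale. On unscaled totals 9 were lower in 2+5 and 8 in 3+6, and 0 were higher. Scd2, a stearoyl-CoA desaturase, averaged 926 ± 69.4 CPM in 3+6, 1489 ± 58.3 in 2+5 and 5750 ± 309 in 1+4 (SD, n = 6). Scd2 differed by log2 -1.95 (SE 0.05) in 2+5 and by -2.63 (SE 0.05) in 3+6, each against 1+4. Scd3, of the same family, had 8.71 ± 1.07 CPM in 3+6 against 59.4 ± 7.64 in 2+5 and 67.9 ± 4.88 in 1+4. Scd genes are close copies, and salmon may divide their reads. Fads2, the delta-6 desaturase, was lower in 2+5 than in 1+4 by log2 -1.25 (SE 0.04).

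In the cholesterol genes that SREBP-2 is known to drive, the sets took another order. All 20 tested of 21 were lower in 2+5 than in 1+4, with a median of -1.21 on the log2 scale, while 3+6 had 1 higher (2 without 24 h replicate 6) and 14 lower against 1+4, with a median of -0.25 (4 lower and 0 higher on unscaled totals). All 20 were higher in 3+6 than in 2+5, with a median of 0.87 (19 of 20 without 24 h replicate 5). Sqle, squalene epoxidase, averaged 84.7 ± 4.56 CPM in 3+6, 31.1 ± 1.52 in 2+5 and 113 ± 8.81 in 1+4 (SD, n = 6). Sc5d, of late cholesterol synthesis, was lower in 3+6 than in 1+4 by log2 -0.81 (SE 0.04). Among the 10 lipogenic genes Fasn, Thrsp and Pnpla3 had this order of sets, lowest in 2+5.

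Of the genes that process SREBP, 12 of 13 were tested, with 3 higher and 6 lower in 2+5 and 0 higher and 7 lower in 3+6, each against 1+4. On unscaled totals there were 0 higher and 3 lower in 2+5 and 0 higher and 2 lower in 3+6. Insig1, which holds SREBP in the endoplasmic reticulum and is itself a target of it, averaged 289.6 ± 18.5 CPM in 3+6, 238 ± 9.78 in 2+5 and 573 ± 28.9 in 1+4. Srebf2, the gene of SREBP-2, had 226 ± 11.2, 135 ± 7.98 and 274 ± 13.3 CPM, a log2 fold change of -1.02 (SE 0.04) in 2+5 against 1+4. Insig2, a relative of Insig1, was lower in 3+6 than in 1+4 by log2 -0.44 (SE 0.05) and higher in 2+5 than in 1+4 by 0.46 (SE 0.05).

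Of the precursor and NADPH genes, 18 of 19 were tested. There were 2 higher and 9 lower in 2+5 and 2 higher and 13 lower in 3+6, each against 1+4, with medians of -0.12 and -0.27 on the log2 scale. On unscaled totals 2 were higher and 4 lower in 2+5, and 1 higher and 3 lower in 3+6. Slc25a1, the mitochondrial citrate carrier that supplies Acly, averaged 65.2 ± 4.68 CPM in 3+6, 41.8 ± 2.71 in 2+5 and 79.9 ± 3.37 in 1+4. Aacs, acetoacetyl-CoA synthetase, was lower in 2+5 than in 1+4 by log2 -0.77 (SE 0.04). Tkt, transketolase of the pentose phosphate pathway, was lower in 3+6 than in 1+4 by log2 -0.86 (SE 0.05). Me3, a mitochondrial malic enzyme below the level set for naming and added after its values were seen, was higher than in 1+4 by log2 1.04 (SE 0.15) in 2+5 and 0.53 (SE 0.15) in 3+6.

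Mitochondrial fatty acid synthesis is a separate pathway that makes lipoic acid. Of 9 genes 8 were tested, with 3 higher and 1 lower in 2+5 and 2 higher and 3 lower in 3+6, each against 1+4. On unscaled totals 2 were higher and 0 lower in each, and the 1 lower in 2+5 became 2 without 4 h replicate 3 or 6 or without 24 h replicate 1 or 2. Mcat, its malonyl transferase, was higher by log2 0.54 (SE 0.06) in 2+5 and 0.51 (SE 0.06) in 3+6, Cbr4, a reductase, by 0.28 (SE 0.08) in 2+5, and Ndufab1, the acyl carrier protein, was lower by -0.41 (SE 0.07) in 3+6. The partners and targets of ChREBP, LXR and USF had calls in both directions, with 8 higher and 6 lower of 19 tested (20 listed) in 2+5 and 4 higher and 5 lower in 3+6. Unscaled, there were 0 higher and 6 lower in 2+5 and 3 higher and 2 lower in 3+6, while without 4 h replicate 3 there were 7 higher in 3+6 and in the libraries numbered 4 to 6 alone 2. Txnip, a glucose-induced target of ChREBP, averaged 549.8 ± 40.5 CPM in 3+6, 742 ± 75.7 in 2+5 and 1026 ± 19.4 in 1+4. Nr1h3, the gene of liver X receptor alpha, was lower in 3+6 by log2 -0.71 (SE 0.05), and Ppargc1b, a coactivator of SREBP, in 2+5 by -0.53 (SE 0.04).

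Of genes that control acetyl-CoA carboxylase and lipogenesis, AMP-activated kinase among them, 22 of 23 were tested, with 10 higher and 7 lower in 2+5 and 5 higher and 8 lower in 3+6, each against 1+4. Unscaled, there were 3 higher and 3 lower in 2+5 and 3 higher and 5 lower in 3+6, and the libraries numbered 4 to 6 alone gave 4 lower in 2+5, those numbered 1 to 3 alone 3 higher in 3+6. Mid1ip1, a relative of Thrsp that promotes the polymerisation of acetyl-CoA carboxylase, averaged 16.6 ± 1.74 CPM in 3+6, 15.7 ± 0.614 in 2+5 and 44.3 ± 2.73 in 1+4, the pattern of Acss2 and Srebf1. Prkaa1, a catalytic subunit of the kinase that inhibits the carboxylases, had 61.4 ± 1.20, 93.2 ± 1.73 and 45.9 ± 2.23 CPM in the same sets. Trib3, a pseudokinase known to promote the breakdown of acetyl-CoA carboxylase, had 15.8 ± 1.86, 36.5 ± 1.40 and 61.7 ± 6.23 CPM.

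**Figure D5:**
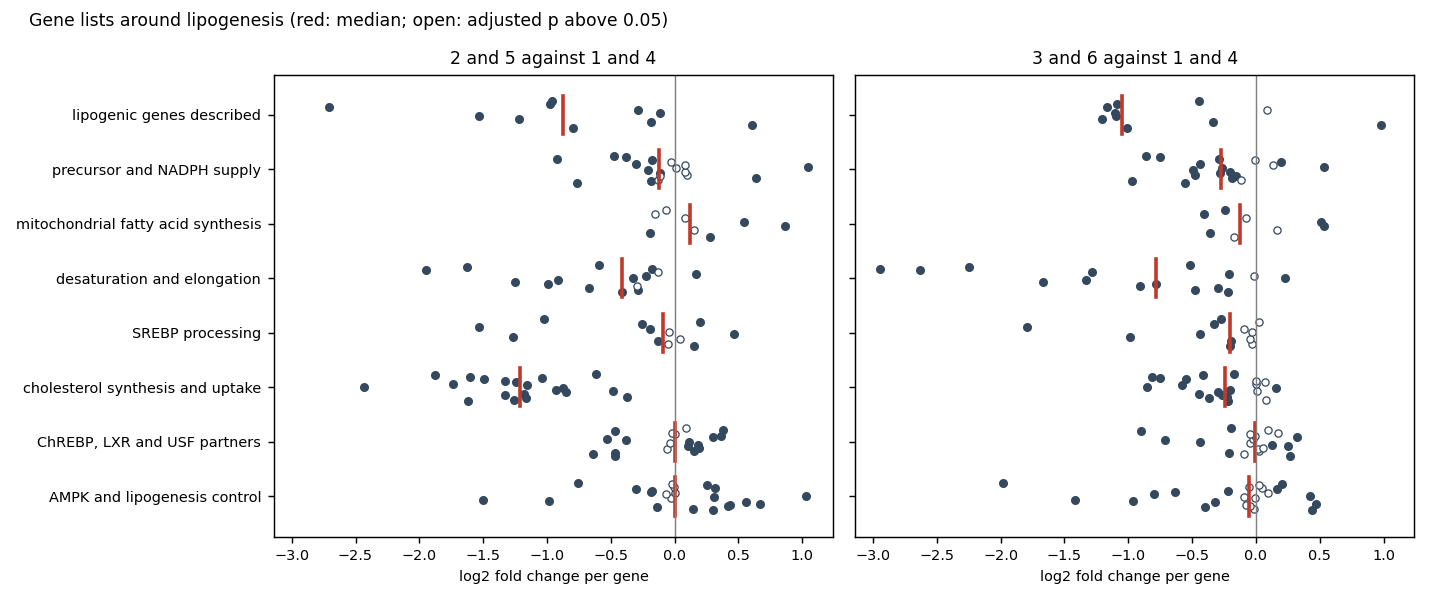
Log2 fold change (x axis) of each gene of the lists around lipogenesis (y axis) in 2+5 against 1+4 (left) and 3+6 against 1+4 (right); filled points passed the edgeR test, open points did not, and red bars are list medians. The cholesterol list has a median of -1.21 on the left and -0.25 on the right, and the desaturation list -0.41 and -0.78.

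Markers of cell state moved with the sets beside these genes. Of the brown adipocyte markers 9 of 10 were tested, with 2 higher and 6 lower in 2+5 and 1 higher and 5 lower in 3+6, each against 1+4. On unscaled totals 0 were higher in 2+5, and 1 was without 0 h replicate 1, 4 or 5, 4 h replicate 2 or 4, or 24 h replicate 2. Their summed level was 3036 to 3810 CPM in 3+6, 2711 to 3118 CPM in 2+5 and 3788 to 3991 CPM in 1+4. Ucp1, the uncoupling protein that defines brown fat, had 1.08, 1.80 and 2.65 CPM as lowest, median and highest in 3+6, 9.35, 10.7 and 10.9 CPM in 2+5 and 12.8, 15.6 and 18.03 CPM in 1+4. Low in every library, Ucp1 kept the sets apart, with a log2 fold change of -3.09 (SE 0.12) in 3+6 and -0.59 (SE 0.10) in 2+5, each against 1+4. Cidea, another brown fat gene, had a median of 15.2 CPM in 3+6, 13.8 CPM in 2+5 and 14.2 CPM in 1+4. Elovl3, an elongase of cold-exposed brown fat, reached at most 1.07 CPM. Ucp1, Cidea and Elovl3 were chosen after their values were seen. Plin1, the coat protein of lipid droplets, averaged 176 ± 13.5, 108 ± 6.96 and 378 ± 20.6 CPM in these sets, an order like that of Fasn. Prdm16, a factor of brown fat identity, was lower in 2+5 by log2 -0.99 (SE 0.08), while Adipoq, the gene of adiponectin, was higher in 3+6 by 0.81 (SE 0.06), each against 1+4.

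Preadipocyte and fibroblast markers went the other way. Of 8 tested of 9, there were 7 higher and 0 lower in 2+5 and 8 higher and 0 lower in 3+6, each against 1+4, and their summed level was 1584 to 1984 CPM in 3+6, 1064 to 1534 CPM in 2+5 and 827 to 963 CPM in 1+4. On unscaled totals 3 were higher in 2+5 and 8 in 3+6. Pdgfra, a receptor of preadipocytes, averaged 142 ± 14.7, 93.2 ± 16.3 and 61.3 ± 3.28 CPM, and Dcn, the matrix protein decorin, was higher in 3+6 by log2 1.32 (SE 0.08) and in 2+5 by 0.67 (SE 0.09). The part of these markers in the lipogenic differences was not tested. Markers of other cells were near 0: macrophage markers summed to at most 5.35 CPM with Adgre1 at 0, endothelial ones to at most 1.48 CPM with Cdh5 at 0, muscle ones to at most 4.35 CPM with Myod1 at 0 and hepatocyte ones to at most 0.950 CPM with Ttr at 0.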

How the data were processed

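RNA of 18 libraries was sequenced as rRNA-depleted, strand-keeping paired reads, per the labels' protocols. The authors deposited salmon's expected counts per gene, which are estimated read numbers not scaled between libraries, and 27.4% of those above 0 had a fractional part. Build mm10, edgeR and limma are named in the submitters' processing notes. Not given in the sources used here are salmon's version, its annotation and its strand setting, and salmon divides reads between similar transcripts. Expected counts were rounded, filtered with filterByExpr (minimum count 10, minimum total 15), scaled by TMM and tested with edgeR 4.0.16 (robust quasi-likelihood F-test, Benjamini-Hochberg over 14788 genes, threshold 0.05) in R 4.3.3. Models held labelled time alone, or number sets or replicate numbers with time. log2 CPM used a prior count of 2. Alternatives used DESeq2 1.42.0, limma 3.58.1, other scalings, filters and left-out libraries, and scripts were tested on simulated data.

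The 10 genes, the lists and the number sets were chosen with earlier results of these data known. From each list were named the genes, at most 2 per comparison, with the largest absolute fold change among those called in 2+5 or 3+6 against 1+4 with a mean log2 CPM of at least 3; exceptions are marked in the text, and some genes so chosen are not reported here. Same-numbered libraries pair across times: in all 18 pairs their deviations from the time means correlated by 0.2975 to 0.7184, over the bound of 0.1. The median was 0.5694 for numbers 3 apart and -0.2701 for other numbers. GENCODE M21 held 45143 of the 45706 identifiers, and promoter windows came from RefSeq on GRCm38.p6.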

Additional observations from a re-analysis of the deposited data

Results flagged for a closer look

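Groups of 6 libraries, 60 in all (10 genes by labelled time and by number set), were searched for a library far from the other 5. It was found in 2 groups, both by number set. Chance gives about 1 in 20 for values of a single spread. Groups by labelled time mix the 3 sets, so this rate cannot be set against the 60. For the groups by number set, 10 genes in each of 3 sets, the 2 found lie near that rate. Fasn had 533 CPM in 24 h replicate 5, against 389 to 440.01 CPM in the other libraries of 2+5. That library had the lowest total, 7010742 expected counts, and 63.9% of its counts on ribosomal RNA-like genes. Without it the log2 fold change of Fasn was -1.61 in 2+5 against 1+4 and 0.50 in 3+6 against 2+5. Srebf1 had 819 CPM in 0 h replicate 1, against 878 to 896 CPM in the other libraries of 1+4, and without it the log2 fold change was -0.99 in 2+5 and -1.11 in 3+6, each against 1+4. The part of depth or of ribosomal RNA-like counts in these values was not tested.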

How the results depend on the processing

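The numbers of the 10 genes called stayed within 1.5 times of those reported in all 69 values under other settings and all 144 with 1 library left out, and so did 542 of 594 and 960 of 972 list counts (alternatives added after seeing the data). Fold changes between sets kept direction and call in 312 of 330 and 527 of 540 values. Between labelled times, where 0 of the 10 genes were called in any setting, fold changes turned sign in 28 of 240 and 127 of 540 values. On unscaled library totals, which moved the median of all genes by up to 0.25, the genes called numbered 3788 in 2+5 and 4536 in 3+6 against 1+4, 5130 in 3+6 against 2+5, 4817 between the 6 numbers and 8 for the interaction. Acaca (0.0679), Acly (0.11) and Srebf1 (0.17) then changed sign in 3+6 against 2+5, as did Fasn in 24 h against 0 h (-0.0829). Less the shift, those of Acaca, Acly and Srebf1 were -0.18, -0.14 and -0.08. The calls of Acly, Me1 and Mlxipl in 2+5 and of Acly and Thrsp in 3+6, each against 1+4, were lost there, with log2 values of -0.29, -0.23 and -0.39 in 2+5 and -0.17 and -0.30 in 3+6. The interaction gave 302 genes with no filter on low counts and 1 with DESeq2; the cause was not tested.

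With the replicate number as a block, which the pairing of the numbers allows, 1 gene was called in 24 h against 0 h, and no call of the 10 genes changed. With 1 library left out, 0 to 1 genes were called in 4 h against 0 h and in 24 h against 4 h (1 without 4 h replicate 3) and 0 to 5 for the interaction (5 without 24 h replicate 2, 1 without 24 h replicate 6). The log2 fold change of Fasn ran from -0.13 (without 4 h replicate 4) to 0.32 (without 0 h replicate 4) in 4 h against 0 h and from -0.15 (without 24 h replicate 1) to 0.29 (without 0 h replicate 4) in 24 h against 0 h, and that of Acss2 from -0.0232 to 0.0460 in 3+6 against 2+5. By Spearman correlation the likeness to Fasn was 0.953 for Gypc, 0.899 for Dgat2, 0.924 for Parm1, 0.905 for Tns1 and 0.917 for Fads1, and the top 5 shared 0 genes with those by Pearson. Srebf1 in 3+6 against 2+5 passed the threshold in 6 of 18 fits with 1 library left out and in 6 of 11 other settings. Of the latter, DESeq2 gave an adjusted p of 0.0432 and limma 0.0498. The rest were edgeR with RLE factors, without ribosomal RNA-like genes, with the 6 numbers in the model and on libraries numbered 4 to 6 alone. In single pairs of numbers, Me1 was not called for 5 against 4 (edgeR adjusted p = 0.116) nor Acly for 3 against 2 (edgeR adjusted p = 0.0668), and a fit of the 9 libraries numbered 4 to 6 alone lost the call of Fasn in 3+6 against 2+5. Depth limits the lowest genes most, Pnpla3 among them.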
